A study of Bos taurus with 18 samples.

Results

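High ×5 vs. Low Control is the contrast in which both factors of the study changed together, so that a difference cannot be assigned to glucose or to the supplement from these 6 libraries alone. It was defined by the sample labels and holds 6 of the 18 libraries of the series, 3 of High ×5 and 3 of Low Control, with all 31500 tested CpGs. All libraries came from EBTr cells, an established fibroblast line of bovine embryonic trachea, grown in Eagle's minimum essential medium with fetal bovine serum, antibiotics and sodium pyruvate. High ×5 cells had 4.5 g/L glucose and epigenetic modifiers (EM), that is methionine, choline, folate and vitamin B12, at 5 times the basal level, and Low Control cells had 1 g/L glucose and basal EM. For methionine, the labels give 5 times the basal level in ×5 medium, whereas the study's methods give 2 times. The other 4 treatments of the series were High Control, High ×2.5, Low ×2.5 and Low ×5. The 3 libraries of a treatment were made from 3 tubes of frozen cells of 1 line, and no source states that the tubes came from separate cultures, so that *p*-values measure the spread between these libraries, which may be technical. Marker genes of fibroblasts could not be checked, since RRBS measures DNA methylation and not expression.

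The supplemented nutrients feed one-carbon metabolism, in which the folate cycle passes a methyl group to homocysteine with vitamin B12 as cofactor, choline is another source of methyl groups through betaine, and methionine is the precursor of S-adenosylmethionine. S-adenosylmethionine is the methyl donor of the DNA methyltransferases, which place methyl groups on the cytosine of CpG dinucleotides. A CpG reads the same on both DNA strands, and the maintenance methyltransferase copies its methylation to the new strand after replication, so that both strands of a CpG usually carry the same state. In RRBS (reduced representation bisulfite sequencing), DNA is cut with a restriction enzyme and treated with bisulfite, which converts unmethylated cytosines and spares methylated ones, so that sequencing of CpG-rich fragments reads the state of each. The deposited value is the M-value, which compares methylated with unmethylated reads as a log2 ratio and has an offset in both numbers. A level in percent was computed back from it and still holds the offset. Differences are given as High ×5 minus Low Control, and a CpG with a positive difference that passed the test is called methylated in High ×5, with a negative difference demethylated. The read depth behind each value is unknown, and no interval for a single value was computed.

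Mean methylation overlapped between the treatments. The mean level over all CpGs was 68.7%, 67.6% and 68.6% in the High ×5 libraries and 69.6%, 67.8% and 67.2% in the Low Control libraries. The means were 68.3% ± 0.619 (SD, n = 3) and 68.2% ± 1.25 (SD, n = 3), a difference of 0.105 percentage points (exact two-sided permutation *p* = 1.0, where 0.1 is the smallest value that 3 against 3 libraries can give). This difference was 0.805 points without Low Control replicate 1, 0.462 without High ×5 replicate 2, -0.398 without Low Control replicate 3, and between -0.0925 and -0.067 without each of the other 3 libraries. Low Control replicate 1 had a higher mean level and a wider spread of M-values than the other Low Control libraries. Its M-values had an SD over CpGs of 1.77, against 1.63 and 1.58 in replicates 2 and 3, and 15.8% of its CpGs had a level of at least 90%, against 10.4% and 8.56%. In the High ×5 libraries this SD was 1.68, 1.63 and 1.74. Low Control replicate 1 lay closer to High ×5 replicate 3, with a mean absolute difference of 4.88 percentage points per CpG, than to Low Control replicates 2 and 3, with 6.32 and 6.92. Over all 15 pairs of the 6 libraries, the 9 pairs between treatments differed by 4.88 to 7.23 points and the 6 pairs within a treatment by 5.65 to 7.35 points. The largest value, 7.35, was between Low Control replicates 2 and 3, so that replicate 1 was not the most distant of these 3. Low Control replicate 3 had the lowest mean level, SD and share of CpGs at 90% or over among all 18 libraries. The plot of library means shows Low Control replicate 1 at the height of the other treatments. The totals of called CpGs and clusters are therefore given with and without it, and also without Low Control replicate 3.

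**Figure D1:**
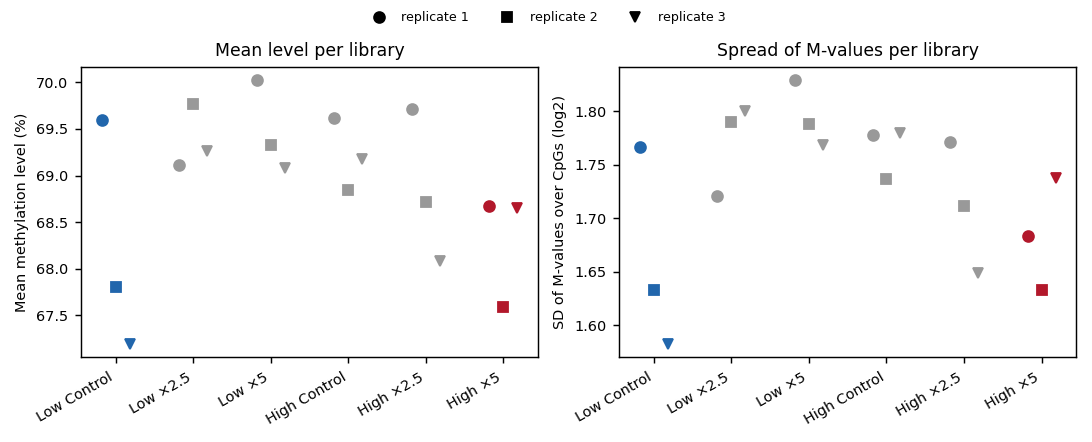
Mean methylation level (left, percent) and SD of M-values over CpGs (right, log2 scale) in each of the 18 libraries, with the y axes not starting at 0, 1 point per library and the marker giving the replicate number. Low Control is blue, High ×5 red and the other treatments grey. Low Control replicate 1 lies at 69.6%, above Low Control replicates 2 and 3 at 67.8% and 67.2%.

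At the threshold of an unadjusted *p*-value under 0.01, the calls were 552 of 31500 CpGs (1.75%), made up of 296 methylated (0.94%) and 256 demethylated (0.813%) CpGs. This threshold would give 315 calls if no CpG differed. After Benjamini-Hochberg adjustment of the limma *p*-values, no CpG was under 0.05, while 2438 had an unadjusted *p*-value under 0.05, and the smallest adjusted *p*-value was 0.0611. Without Low Control replicate 1, 1022 CpGs were called, 660 methylated and 362 demethylated. Without Low Control replicate 3, the split was the other way, with 194 methylated and 354 demethylated CpGs. Demethylated calls were also the more frequent without Low Control replicate 2 (260 methylated, 337 demethylated), without High ×5 replicate 3 (334 and 357) and after median centring of the libraries (284 and 309). The lean toward methylated or demethylated calls therefore depended on the libraries in the fit and on the centring, as the plot of calls by processing shows. With the 6 libraries fitted alone, 197 CpGs were called, fewer than the 315 that this threshold would give if no CpG differed.

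**Figure D2:**
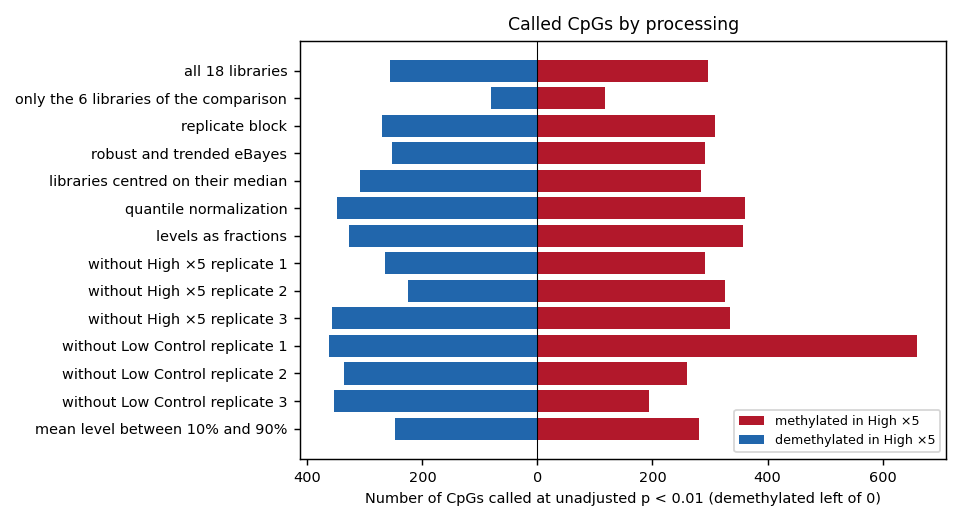
Number of CpGs called at an unadjusted *p*-value under 0.01 in each fit, with methylated CpGs to the right of 0 and demethylated CpGs to the left. The longest bar is that of the 660 methylated CpGs without Low Control replicate 1, against 296 with all 18 libraries.

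Differences at called CpGs were moderate. The methylated CpGs had a median difference of 12.2 percentage points and a median log2 difference of 1.09, and the demethylated CpGs of -12.2 points and -0.99. Over all tested CpGs, the median size of a difference was 2.73 points. Of the 552 called CpGs, 384 differed by at least 10 points and 37 by at least 20. The largest were 24.0 points higher and 26.6 points lower. In 482 of the called CpGs, the levels of the 3 High ×5 libraries and the 3 Low Control libraries did not overlap. Over all CpGs, the 3 High ×5 libraries were all above the 3 Low Control libraries at 1361 (4.32%) and all below at 1497 (4.75%).

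For a closer view, 8 CpGs were named in each direction by their *p*-values, which puts them at the extreme of what the contrast holds, and their levels were plotted by library. Among the methylated CpGs, the smallest *p*-value was at *ITGB8*, the integrin β8 subunit that takes part in the activation of latent TGF-β. At chromosome 4, position 28959908, the level was 85.2%, 83.3% and 80% in High ×5 and 60.9%, 59.3% and 63.6% in Low Control. Every High ×5 library was above every Low Control library, and the log2 difference was 1.62 (SE 0.22, adjusted *p* = 0.0611, limma). With robust and trended eBayes this adjusted *p*-value was 0.046 and with levels as fractions 0.043. Over all alternatives it ran from 0.043 to 0.999, the latter in the fit of the 6 libraries alone. High Control and Low ×5 had 71.2% ± 5.12 and 62.4% ± 3.60 there (SD, n = 3 each).

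At *PPP2R2A*, a regulatory subunit of protein phosphatase 2A, the CpG at chromosome 8, position 74624288 had 51.9%, 60% and 60% in High ×5 and 35.1%, 31.2% and 40.0% in Low Control. The groups did not overlap, and the log2 difference was 1.29 (SE 0.23, adjusted *p* = 0.312, limma). *TLE4* encodes a corepressor of the Groucho family, which acts on targets of the Wnt pathway. Its CpG at chromosome 8, position 56779123 had 78.3%, 79.4% and 74.5% in High ×5 and 61.9%, 60.8% and 57.9% in Low Control, which gave a difference of 1.18 in log2 units (SE 0.22, adjusted *p* = 0.34, limma). At *GALNT17*, of the family of enzymes that start mucin-type O-glycosylation, the CpG at chromosome 25, position 30337639 had 68.2%, 65.4% and 65.9% against 48.5%, 47.4% and 46.7%. The SD within each treatment was 1.5 and 0.917 points here, and the log2 difference was 1.13 (SE 0.22, adjusted *p* = 0.406, limma). A CpG with no assigned gene at chromosome 20, position 72037266 had 91.4%, 89.3% and 91.0% in High ×5 and 82.8%, 79.2% and 78.6% in Low Control.

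The remaining methylated CpGs had wider spreads. At *TTI2*, part of the complex that stabilises PI3K-related kinases such as mTOR, the CpG at chromosome 27, position 28464208 had 80.6%, 81.5% and 66.7% in High ×5 and 58.3%, 46.4% and 52.2% in Low Control. At *NUDT12*, a hydrolase of NADH and related nucleotides, the CpG at chromosome 7, position 105825825 had 77.8%, 80.8% and 68.2% against 48.3%, 64.7% and 42.9%. *LRGUK*, a guanylate kinase domain protein known from sperm development, had 45.5%, 60% and 43.3% against 33.3%, 23.8% and 25.0% at chromosome 4, position 98714034. None of these overlapped between the groups, and their adjusted *p*-values were 0.436, 0.467 and 0.467 (limma).

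Among the demethylated CpGs, the smallest *p*-value was at *MKLN1*, which encodes muskelin, a subunit of an E3 ubiquitin ligase. The CpG at chromosome 4, position 95745886 had 44.0%, 45.8% and 52.2% in High ×5 and 69.4%, 75.0% and 68.4% in Low Control, and the difference in log2 units was -1.45 (SE 0.25, adjusted *p* = 0.312, limma). High Control had 68.5% ± 3.69 (SD, n = 3) and Low ×5 61.4% ± 0.553 (SD, n = 3). At *ZNF395*, a zinc finger protein, the CpG at chromosome 8, position 10193493 had 33.3%, 47.1% and 36.8% in High ×5 and 64.4%, 70.8% and 57.1% in Low Control. This difference of -25.1 points was the largest among the 16 named CpGs, and the means of High Control and Low ×5, 58.9% and 61.3%, lay near that of Low Control. *TWIST1*, a transcription factor of mesenchymal cells, had 58.3%, 44.4% and 58.8% against 76.1%, 68.8% and 81.0% at chromosome 4, position 27731687.

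*RASA1*, a GTPase-activating protein that switches off RAS, held the named CpG of lowest methylation. At chromosome 7, position 89222273, the level was 4.76%, 5.80% and 6.82% in High ×5 and 14.9%, 12.5% and 15.8% in Low Control, or -1.46 in log2 units (SE 0.29, adjusted *p* = 0.437, limma). High Control and Low ×5 had 7.26% ± 1.45 and 7.51% ± 2.23 (SD, n = 3 each), so that Low Control was the highest of these treatments. At *TLE4*, a CpG at chromosome 8, position 56802488 had 15.2%, 22.2% and 18.8% in High ×5 against 31.03%, 30.95% and 36.0%, opposite in direction to the *TLE4* CpG above. *ITGB8* also held CpGs of both directions, with 90.4%, 91.7% and 89.4% in High ×5 and 95.9%, 95.8% and 98.1% in Low Control at chromosome 4, position 28976628. At *TENM3*, a teneurin that guides neuronal connections, the levels at chromosome 27, position 10389660 were 89.2%, 89.8% and 85.5% against 93.9%, 94.1% and 95.6%. The last named CpG, at *DIPK2A* on chromosome 1, position 124941669, had 83.3%, 81.0% and 78.4% against 92.7%, 90.0% and 89.3%. At all 16 named CpGs the groups did not overlap, and each stayed at an unadjusted *p*-value under 0.01 when any 1 of the 6 libraries was left out. Both are favoured by the choice of the smallest *p*-values in a fit that holds these libraries. In 31 of 32 cases the mean of High Control or Low ×5 lay between the means of High ×5 and Low Control, a position that the choice of extreme CpGs favours.

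**Figure D3:**
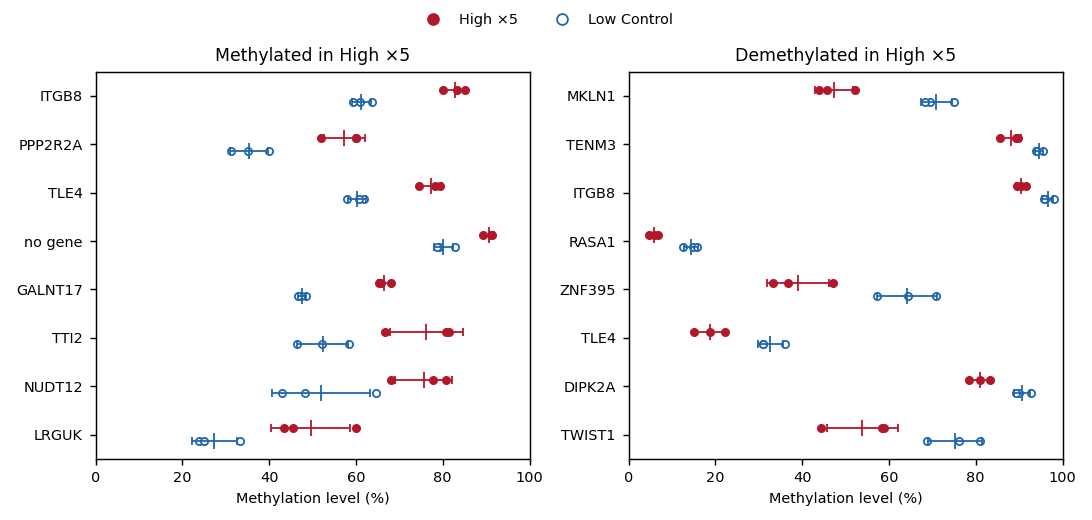
Methylation level in percent (x axis) of the 16 named CpGs, by assigned gene, in the 3 High ×5 libraries (filled red) and the 3 Low Control libraries (open blue), with the mean as a vertical mark and the SD as a bar. The groups do not overlap in any row, from *RASA1* at 4.76 to 15.8% to *ITGB8* at 89.4 to 98.1% among the demethylated CpGs.

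The means of the tested positions around the named CpGs differed less than the CpGs themselves. Of the 16 named CpGs, 15 lay in a cluster, defined as at least 3 CpGs each less than 100 bp from the next, and none of these 15 clusters was called when its CpGs, the named one included, were averaged, with 2 at an unadjusted *p*-value under 0.05 (limma). The median size of the log2 difference was 1.40 at the named CpGs and 0.17 for the means of the clusters that hold them. The choice of extreme CpGs favours a smaller difference in a mean with their neighbours. These values therefore do not show whether differences are confined to single CpGs. Around the *ITGB8* CpG with the smallest *p*-value, 15 of 23 CpGs between 28959908 and 28960385 were higher in High ×5, 3 of them were called, and the cluster differed by 0.18. Around the *PPP2R2A* CpG, 2 of 9 CpGs were higher and the cluster differed by 0.03. For *MKLN1*, 7 of 16 CpGs were lower and the cluster difference was 0.01.

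A sharper view came from positions 1 bp apart, which hold the cytosines of both strands of a CpG (or, in a CGCG stretch, of neighbouring CpGs, which could not be told apart without the genome). There were 5637 such pairs with no other tested position directly beside them. Their mean levels over the 6 libraries and the other 12 were close, with a median gap of 1.79 points and a correlation of 0.949 across pairs. The differences between High ×5 and Low Control were not shared, with a correlation of 0.0123 across these pairs and 51.6% of pairs with the same sign. Of the called cytosines, 177 had a strand partner, and the partner differed in the same direction in 89. The median log2 difference was 1.10 at the 83 methylated cytosines and -0.08 at their partners, and -0.99 at the 94 demethylated cytosines and -0.06 at their partners. The levels of partners correlated at 0.851 to 0.916 within each of the 6 libraries. The part of read depth in this pattern was not tested, since depth is unknown.

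Both cytosines were called in 3 of the 5637 pairs, which were singled out after their values were seen. Taken singly, 177 of the 11274 cytosines in pairs (1.57%) were called. The number of pairs with both called that unrelated strands would give was not computed. At *PPP2R2A*, both fell, from 77.9% in Low Control to 66.1% in High ×5 at chromosome 8, position 74764279 and from 81.4% to 65.7% at 74764280. The mean of both strands differed by -1.03 (SE 0.23, adjusted *p* = 0.394, limma). At *GNAI1*, an inhibitory G protein subunit, both rose, from 55.0% to 67.3% at chromosome 4, position 41491105 and from 49.97% to 60.5% at 41491106, and the mean of both strands differed by 0.69 (SE 0.15, adjusted *p* = 0.394, limma). At *DMAC1*, a factor in the assembly of mitochondrial complex I, the strands went in opposite directions, from 93.0% to 88.8% at chromosome 8, position 36143907 and from 84.9% to 92.4% at 36143908. Among the named CpGs, 6 had a strand partner and 3 partners had the same direction. For *RASA1*, the partner at 89222274 was also lower in High ×5, 9.35% against 15.6% (unadjusted *p* = 0.035, limma), and for *ITGB8* the partner at 28976627 was 89.6% against 92.9% (unadjusted *p* = 0.0212, limma). For *GALNT17* it was 49.8% against 61.9%, opposite to the named CpG. When both strands were averaged, which was chosen after seeing the data, 99 of 5637 pairs (1.76%) were called, 42 methylated and 57 demethylated, with 401 at an unadjusted *p*-value under 0.05 and none at an adjusted *p*-value under 0.05 (limma).

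**Figure D4:**
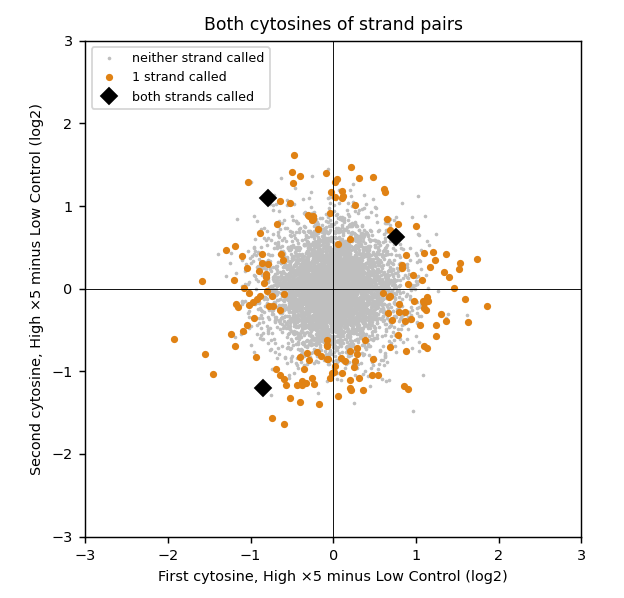
High ×5 minus Low Control (log2) at the first cytosine (x axis) and the second cytosine (y axis) of each of the 5637 strand pairs, with pairs in which 1 strand (orange) or both strands (black) were called. Points scatter evenly around both axes, with a correlation of 0.0123, and 3 pairs were called on both strands.

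At other positions, differences correlated weakly over short distances. Across pairs of tested cytosines 2 to 10 bp apart, which can lie on the same reads, the differences correlated at 0.201, and the correlation was 0.108 at 11 to 30 bp, 0.0325 at 31 to 100 bp and 0.0184 at 101 to 300 bp. These pairs share libraries and, at short distance, reads. Where 1 position of a pair 2 to 10 bp apart was called, the other had the same sign in 68.5%, against 57.1% over all such pairs. Of the 552 called CpGs, 113 (20.5%) had another called CpG 2 to 99 bp away, 85 of them with one in the same direction. The same share over all CpGs was not computed, so that these counts do not show whether calls lie closer together than other CpGs.

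Of 2663 clusters, 39 (1.46%) were called, 17 (0.638%) methylated and 22 (0.826%) demethylated in High ×5. No cluster passed an adjusted *p*-value of 0.05 in limma, 164 had an unadjusted *p*-value under 0.05, and the smallest adjusted *p*-value was 0.279. Without Low Control replicate 1, 120 clusters were called, 91 of them methylated, and 4 had an adjusted *p*-value under 0.05. Without Low Control replicate 3, 34 were called and 5 of these were methylated.

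The methylated clusters with the smallest *p*-values were at *PLCB1*, *CDH10*, *RPL34* and *TTI2*. *PLCB1* encodes phospholipase C β1, which cuts phosphatidylinositol bisphosphate into second messengers. Its 5 CpGs at chromosome 13, positions 870767 to 870806 had a mean level of 86.2%, 79.0% and 85.9% in High ×5 and 79.2%, 70% and 69.4% in Low Control. High ×5 replicate 2 lay just below Low Control replicate 1, so that the groups overlapped. The log2 difference was 0.94 (SE 0.21, adjusted *p* = 0.279, limma), and without Low Control replicate 1 it was 1.22 (adjusted *p* = 0.0168, the lowest over its alternatives, which ran to 0.999). All 5 CpGs were higher in High ×5, by log2 differences from 0.63 to 1.29. The other treatments were also above Low Control, with 87.3% ± 1.15 in High Control and 84.4% ± 0.603 in Low ×5 (SD, n = 3 each). The choice of the cluster for a High ×5 level above that of Low Control favours this position. The 3 CpGs of *CDH10*, a classical cadherin, at chromosome 20, positions 48557245 to 48557268 had 86.7%, 79.4% and 86.0% in High ×5 and 77.0%, 63.5% and 72.9% in Low Control. The 5 CpGs at *RPL34*, a protein of the large ribosomal subunit, at chromosome 6, positions 17968757 to 17968863 had 70%, 71.2% and 70.5% against 64.5%, 62.0% and 62.9%. The 7 CpGs at *TTI2* on chromosome 27, positions 28586860 to 28586934 had 85.4%, 84.7% and 80.5% against 80.6%, 76.0% and 75.7%, so that the groups overlapped. This last call was lost without High ×5 replicate 1 (unadjusted *p* = 0.0282), High ×5 replicate 2 (0.013), Low Control replicate 2 (0.02) or Low Control replicate 3 (0.0179).

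Among the demethylated clusters, *CA10*, a carbonic anhydrase-related protein of neurons, had the smallest *p*-value. Its 7 CpGs at chromosome 19, positions 22774 to 22836 had 75.3%, 74.4% and 75.4% in High ×5 and 81.0%, 79.4% and 77.1% in Low Control, and the contrast was -0.43 in log2 units (SE 0.09, adjusted *p* = 0.279, limma). In High Control and Low ×5 the level was 78.2% ± 0.968 and 79.1% ± 0.361 (SD, n = 3 each), near that of Low Control. *ARFGAP3*, which activates the GTPase of ARF1 at the Golgi, had 10 CpGs at chromosome 5, positions 114238170 to 114238397, all of them lower in High ×5. Their mean level was 61.0%, 57.7% and 64.1% in High ×5 and 70.7%, 68.8% and 67.0% in Low Control (log2 difference -0.64, SE 0.15, adjusted *p* = 0.279, limma). The *TLE4* cluster of 7 CpGs at chromosome 8, positions 56830397 to 56830672 had 52.3%, 53.1% and 54.5% against 59.1%, 63.0% and 57.9%, also with every CpG lower. A cluster of 6 CpGs with no assigned gene at chromosome 4, positions 29008841 to 29008956 had 61.4%, 60.5% and 59.2% against 65.0%, 66.4% and 66.5%. The calls of the *CA10* and *TLE4* clusters were lost with the 6 libraries fitted alone (unadjusted *p* = 0.0103 and 0.0136, limma).

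**Figure D5:**
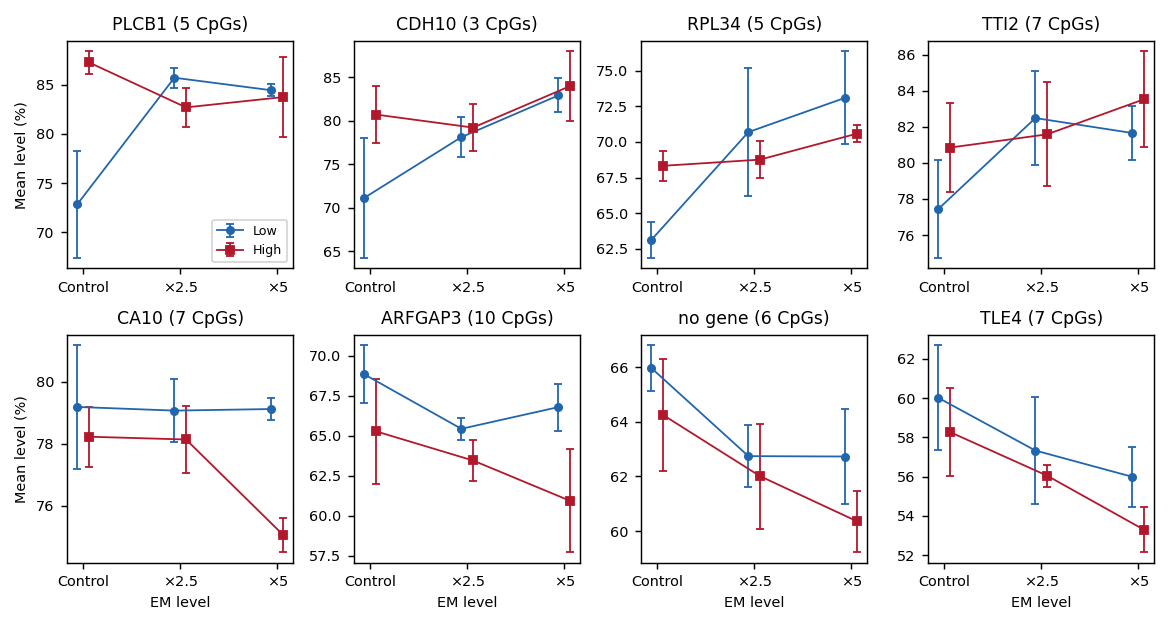
Mean methylation level (y axis, percent, scaled to each panel and not starting at 0) of the 8 named clusters against EM level in Low (blue circles) and High (red squares) glucose, with SD bars over 3 libraries. High ×5 is the rightmost red point and Low Control the leftmost blue point, and at all 4 methylated clusters (*PLCB1*, *CDH10*, *RPL34* and *TTI2*) Low Control lies below the other treatments. The choice of these clusters for a High ×5 level above that of Low Control favours this position.

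Because both factors changed, the contrast can also be set beside the single changes, which share the High ×5 or the Low Control libraries with it. For the 16 CpGs and 8 clusters, the departure from the sum of the single changes (High ×5 minus High Control, less Low ×5 minus Low Control) was tested in the same fit. Only the *PLCB1* cluster passed at an adjusted *p*-value under 0.05. Its log2 difference from Low Control was 1.46 in High Control, 1.22 in Low ×5 and 0.94 in High ×5, a departure of -1.73 from the sum (SE 0.29, adjusted *p* = 0.0174, limma). Without Low Control replicate 2 or 3 this adjusted *p*-value was 0.0646 and 0.0719, and with levels as fractions 0.131, and over the other alternatives it ran from 0.00137 to 0.048. At the named *ITGB8*, *PPP2R2A* and *ZNF395* CpGs, the departures were 0.89, 0.88 and -0.98 in the direction of the contrast, with adjusted *p*-values of 0.376, 0.393 and 0.494 (limma). There the differences of High Control from Low Control were 0.66, 0.36 and -0.33, and those of Low ×5 from Low Control 0.07, 0.06 and -0.19. Departures against the direction of the contrast were found at the named *NUDT12* and *RASA1* CpGs, with -1.23 and 0.74 (adjusted *p* = 0.402 and 0.604, limma), and at the *CDH10* and *RPL34* clusters, with -0.88 and -0.62 (adjusted *p* = 0.216 and 0.137, limma).

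Among the libraries outside the contrast, High ×2.5 and Low ×2.5 differed in glucose alone. At the 296 methylated CpGs, High ×2.5 was higher than Low ×2.5 in 48.3%, against 44.6% of all CpGs, with a median log2 difference of -0.02 against -0.04. At the 256 demethylated CpGs, High ×2.5 was lower than Low ×2.5 in 53.9%, against 55.4% of all CpGs. These shares lie near those of all CpGs. The median level of the methylated CpGs was 82.0% in High ×5, 69.0% in Low Control and between 76.8% and 77.7% in the other 4 treatments. For the demethylated CpGs it was 65.7% in High ×5, 79.7% in Low Control and between 72.7% and 74.0% in the others. The High ×5 and Low Control values in these medians are those that chose the CpGs. Low Control replicate 1 lay nearer to the other treatments in both sets, with 72.8% against 67.0% and 65.2% in replicates 2 and 3 at methylated CpGs, and 77.3% against 78.9% and 80.8% at demethylated CpGs.

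To ask whether the contrast differed by the level of methylation, CpGs were divided by their mean level in the 12 libraries outside it. In the 398 CpGs under 10%, the mean level was 7.19%, 7.72% and 5.44% in High ×5 and 5.48%, 8.53% and 10.0% in Low Control. In the 3951 CpGs of 90% and over, it was 91.3%, 90.3% and 92.0% against 92.7%, 90.4% and 89.3%. The groups overlapped in both classes. Low Control replicate 3 had the highest of these levels in the class under 10% and the lowest in the class of 90% and over, while Low Control replicate 1 had the highest in the latter. The differences were -1.22 points under 10%, -0.936 from 10 to 30%, -0.132 from 30 to 70%, 0.35 from 70 to 90% and 0.42 from 90% (exact two-sided permutation test, adjusted *p* = 0.9 for each of the 5 classes, where unadjusted values cannot go below 0.1). Single libraries moved these values, from -2.48 without Low Control replicate 1 to -0.222 without Low Control replicate 3 under 10%, and from 1.42 to -0.419 at 70 to 90% and from 1.37 to -0.329 from 90% without the same libraries. Called CpGs were 0.754% of the class under 10%, all 3 of them demethylated, and 1.88%, 1.83%, 1.79% and 1.47% of the others in rising order of level. In the 10 to 30% class, 11 were methylated and 22 demethylated, and in the 70 to 90% class 151 and 113.

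The called CpGs lay on all 30 chromosomes tested, in 215 of 612 regions of CpGs no more than 10 kb apart. Of these CpGs, 511 were assigned to 164 of 365 genes, and exons, introns and UTRs were not analysed here. CpGs that the study listed as differentially methylated had the gene of the closest start site, at any distance. Other CpGs took the gene of the listed CpGs on both sides, where these agreed. The 365 genes are therefore genes of the study's list and not all genes near tested CpGs. In all, 25162 CpGs had a gene, and the 511 called are a higher share of these than the 1.75% over all CpGs. Calls in both directions were found in 69 genes, in the methylated direction alone in 40 and in the demethylated direction alone in 55. The 10 genes with the most called CpGs were *C14H8orf33*, *TLE4*, *ALG6*, *CFAP126*, *RNF122*, *PAK1*, *PPP2R2A*, *GRIK1*, *TWIST1* and *SFRP1*, with 150 of their 6090 CpGs called (2.46%). *SFRP1* shared its 8 calls with *IL2*, *RPL34*, *FERMT1* and *GALNT17* and was taken before them for its higher share, against 2.03% to 2.42% in these. Their number of calls went with their number of CpGs, from 28 of 1074 in *C14H8orf33* to 8 of 130 in *SFRP1*, and all 10 had calls in both directions. The difference of the mean level over all assigned CpGs ran from -0.606 percentage points in *CFAP126* to 0.47 in *ALG6* among the 10 genes.

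By gene, *TLE4* had 22 of 688 CpGs called (3.20%), 13 methylated and 9 demethylated. *ALG6*, a glucosyltransferase that builds the glycan precursor of N-linked glycosylation, had 21 of 960 called, 16 methylated and 5 demethylated, and its mean level was 69.1% ± 0.83 in High ×5 and 68.6% ± 1.48 in Low Control (SD, n = 3 each). *PAK1*, a kinase downstream of RAC and CDC42, had 8 methylated and 5 demethylated among 743 CpGs (1.75%). This is the same share as over all CpGs and below that of the CpGs with an assigned gene. *PPP2R2A* had 7 methylated and 4 demethylated of 482. *GRIK1*, a kainate receptor subunit, had 3 methylated and 7 demethylated of 346, and *TWIST1* 5 and 4 of 321. *CFAP126*, a protein of cilia, had the lowest mean level of these genes, 39.5% ± 0.713 in High ×5 and 40.1% ± 0.352 in Low Control (SD, n = 3 each), with 6 methylated and 8 demethylated CpGs. *RNF122*, a RING finger ubiquitin ligase, had 6 and 8 of 734.

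*SFRP1*, a secreted antagonist of Wnt ligands, had 6.15% of 130 CpGs called, 5 methylated and 3 demethylated, a share that placed it among the 10 genes. Its single CpGs given next, and those of the genes that follow up to the regions, were singled out after their values were seen. At position 35834463 of chromosome 27 the level was 76.9% ± 2.71 in High ×5 and 85.5% ± 2.09 in Low Control, while at 35834691 it was 54.6% ± 7.09 and 35.8% ± 0.165 (SD, n = 3 each). At positions 35839078, 35839147 and 35839193, the levels were 86.9%, 73.5% and 20.9% in High ×5 and 73.7%, 87.3% and 11.1% in Low Control, so that neighbouring CpGs of *SFRP1* went in opposite directions. Its mean level was 71.4% ± 1.09 in High ×5 and 71.2% ± 2.30 in Low Control (SD, n = 3 each). *IL2*, the T cell growth factor interleukin 2, had 2 methylated and 6 demethylated of 331 CpGs (2.42%, against 1.75% of all CpGs). Among these, 35647968 and 35647973 on chromosome 17 were both lower in High ×5, at 53.1% against 69.6% and 75.7% against 85.4%. *ADCYAP1*, the neuropeptide PACAP, had 3 demethylated CpGs of 93 (3.23%), with 78.2% ± 3.54 against 91.8% ± 2.76 at position 36389011 of chromosome 24 (SD, n = 3 each). However, 48 of the 93 *ADCYAP1* CpGs were higher in High ×5. Their mean level was 67.8% ± 0.78 in High ×5 and 68.0% ± 1.61 in Low Control (SD, n = 3 each). *ARRDC3*, an arrestin-domain adaptor of receptor trafficking, had 3 methylated and 1 demethylated of 127 (3.15%). *ITGB8* had 4 and 2 of 205 (2.93%), and *PLCB1* had 1 and 2 of 58 (5.17%). *MAP2K6*, a kinase that activates p38, had no called CpG of 71 and 10 at an unadjusted *p*-value under 0.05 (limma), with a mean level of 66.6% ± 1.17 in High ×5 and 68.0% ± 1.19 in Low Control (SD, n = 3 each).

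In most gene groups the share called lay near the 1.75% of all CpGs. The groups hold only CpGs with an assigned gene, a set that the study's list favours, so that 1.75% is a low base for them. Of the 25162 CpGs with an assigned gene, 511 were called, which is a higher share than 1.75%. The group of Wnt modulators and developmental transcription factors had 26 methylated and 19 demethylated of 1367 CpGs (3.29%), and its median log2 difference was -0.02 against 0.0021 over all CpGs. The calls came from 6 of 11 genes, led by *TLE4*, *TWIST1* and *SFRP1*, which are among the genes with the most called CpGs. All these lists were drawn up with earlier results of these data known, so that the share of a group is no independent evidence. *TBXT*, the mesodermal T-box factor brachyury, had 9.38% ± 3.85 in High ×5 and 22.6% ± 2.50 in Low Control (SD, n = 3 each) at chromosome 9, position 102680287. Neuronal receptors and adhesion molecules had 17 methylated and 25 demethylated of 1868 (2.25%), with calls in 13 of 19 genes. Among them, *CA10* had 1 methylated and 6 demethylated of 146 CpGs (4.79%). Mitochondrial and energy metabolism genes had 21 methylated and 12 demethylated of 1829 (1.80%), with calls in 10 of 17 genes. *CPS1*, the entry enzyme of the urea cycle, *NDUFAF4*, an assembly factor of complex I, and *NDUFB7*, a subunit of it, each had 4 methylated CpGs, against 2, 1 and 1 demethylated. Their shares called, 1.91% of 314, 2.07% of 242 and 1.72% of 291 CpGs, lay near that of all CpGs. *GHITM*, a protein of the inner mitochondrial membrane, had 1 methylated and 3 demethylated of 163 CpGs (2.45%).

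MAPK and growth factor signalling had 11 methylated and 9 demethylated of 1155 (1.73%), 13 of these calls at *PAK1*. Small GTPases and their regulators had 7 and 5 of 676 (1.78%), with *RASA1* and *TAGAP* having 1 demethylated CpG each. Chromatin and small RNA regulators had 4 and 5 of 484 (1.86%). Both called CpGs of *AGO2*, the slicing Argonaute of RNA interference, were methylated, with 56.1% ± 7.60 against 37.3% ± 3.49 at chromosome 14, position 4084683 (SD, n = 3 each). *HDAC8*, a histone deacetylase, had 1 methylated and 2 demethylated of 201 CpGs (1.49%). Cytokine and immune genes had 8 and 12 of 1223 (1.64%), 8 of these calls at *IL2*. The genes of the study's own process list for this contrast, which was chosen on these libraries and is no independent evidence, had 32 and 35 of 2773 (2.42%), with calls in 19 of 26 genes.

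Of 302 regions with at least 20 CpGs, 121 held no called CpG. The highest share was on chromosome 20, positions 72036830 to 72037578, where 4 of 24 CpGs were called. The 3 methylated CpGs had no assigned gene, and the demethylated CpG was 1 of 7 assigned to *CCDC127*. Of its CpGs, 20 were higher in High ×5, and its mean level was 88.8%, 88.6% and 90.7% in High ×5 and 88.7%, 87.4% and 83.8% in Low Control, so that the groups overlapped. Next was chromosome 5, positions 120020922 to 120021274 (*LMF2*, a lipase maturation factor), with 3 of 23 called, all demethylated. Of the CpGs of this region, 10 were higher and 13 lower in High ×5. Its mean level was 54.7%, 52.1% and 55.0% in High ×5 and 55.7%, 56.7% and 56.5% in Low Control, which did not overlap. The choice of regions by their calls in these libraries favours this, and the share of all regions without overlap was not computed. The third place was shared by chromosome 14, positions 4084498 to 4084752 (*AGO2*) and chromosome 7, positions 30022264 to 30023089 (with 1 CpG assigned to *ZNF608*, a zinc finger protein), with 2 of 21 CpGs called in each. At *AGO2* the mean level was 62.8%, 61.8% and 60.9% in High ×5 and 59.7%, 56.5% and 61.6% in Low Control. By chromosome, the share of called CpGs ran from 0.625% of 160 on chromosome 18 to 3.81% of 315 on chromosome 20.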

How the data were processed

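RRBS was measured in 18 libraries of EBTr cells, of which 6 form this contrast. The authors trimmed the reads, mapped them to bosTau8 with Bismark (the submitters' processing notes name version 0.22.3), kept CpG cytosines and filtered them on coverage. The deposited log2 values are M-values, 1 per CpG and library. From these, levels in percent and cluster means (at least 3 CpGs, gaps under 100 bp) were computed here. The test was limma 3.58.1 (R 4.3.3) on all 18 libraries with 1 mean per treatment, since counts for the authors' edgeR test were not used here. The call rule was an unadjusted *p*-value under 0.01, two-sided, with Benjamini-Hochberg adjusted values over all CpGs or clusters beside it. eBayes added 4.11 prior degrees of freedom for CpGs. The limma step was tested on simulated data of independent normal values. These held no shifts between libraries and no correlation of neighbouring CpGs, so that the test does not cover either. Library means were compared by exact permutation tests.

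For the 2939 CpGs that the study listed as differentially methylated, the gene was the study's closest start site. Other CpGs took the gene of the listed CpGs on both sides, where these agreed, and in all 25162 CpGs had a gene. Gene spans therefore begin and end at CpGs of that list. Of 365 symbols, 363 were found in a RefSeq table. The text names CpGs with an adjusted *p*-value under 0.05. In each direction it names the 8 CpGs (at least 1000 bp apart) and the 4 clusters of smallest *p*-value. It also names the 10 genes with the most calls, the regions with the 3 highest shares, and genes that earlier results of these data single out. Of these last, *ADCYAP1*, *SFRP1*, *IL2*, *ARRDC3* and *MAP2K6* are also discussed by the study. The members, lists and rules were chosen with earlier results of these data known. Alternatives are given in the closing section. Tables were handled in pandas 2.3.3 and numpy 2.4.6 under Python 3.11.15, permutation tests came from scipy 1.17.1, and plots from matplotlib 3.10.9.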

Additional observations from a re-analysis of the deposited data

Results flagged for a closer look

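The change with ×5 EM at the *PLCB1* cluster on chromosome 13 differed between High and Low glucose in the fit of all 18 libraries. The change from Control to ×5 was -0.52 in High and 1.22 in Low on the log2 scale, a difference of -1.73 (SE 0.29, adjusted *p* = 0.0174 over all clusters, limma). The adjusted *p*-value was 0.0646 without Low Control replicate 2, 0.0719 without Low Control replicate 3 and 0.131 with levels as fractions. It was the only one of the 24 named CpGs and clusters with an adjusted *p*-value under 0.05 in this test. Low Control, with 79.2%, 70% and 69.4%, was the lowest of the 6 treatments at this cluster, as at the named methylated clusters of *CDH10*, *RPL34* and *TTI2*, and High ×5 had 86.2%, 79.0% and 85.9%. These clusters were chosen for a High ×5 level above that of Low Control, which favours a low value in Low Control.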

How the results depend on the processing

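All 16 named CpGs kept their direction and an unadjusted *p*-value under 0.01 in each of the 12 alternative fits, and the 8 named clusters kept their direction in each, with 6 calls lost at the *TTI2*, *CA10* and *TLE4* clusters. The alternative fits share libraries with the fit whose smallest *p*-values chose these CpGs and clusters, which favours this outcome. With the 6 libraries fitted alone, 197 CpGs (117 methylated, 80 demethylated) and 10 clusters were called, of which 158 CpGs were also called with all 18 libraries. These 197 CpGs are fewer than the 315 calls that would come if no CpG differed. At an adjusted *p*-value under 0.05, 0 CpGs and 0 clusters were called, and 63 clusters at an unadjusted *p*-value under 0.01 after quantile normalization. When each library was left out in turn, the calls ran from 548 to 1022 for all CpGs, 194 to 660 for methylated CpGs, 225 to 362 for demethylated CpGs and 34 to 120 for clusters, and the highest were those without Low Control replicate 1. The number of CpGs with an adjusted *p*-value under 0.05 was 1 with robust and trended eBayes, 1 with levels as fractions, 1 among CpGs of mean level 10% to 90%, 2 without Low Control replicate 2 and 0 in the other fits. Of the 552 calls, 234 to 371 were also made in the fits that left out a library. The cause of these shifts was not tested. Centring the libraries on their median gave 284 methylated and 309 demethylated CpGs. The replicate numbers did not pair the libraries, with correlations of deviations of -0.01, 0.02 and -0.06 between same-numbered High ×5 and Low Control libraries. With the replicate number as a block, 579 CpGs (309 methylated, 270 demethylated) and 46 clusters were called. The depth of each CpG is unknown, so that the counting error behind a level could not be given.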
